A study of Mus musculus with 10 samples.

Results

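The RIG-I-like RNA sensors and their adaptors are represented here by 6 genes, Ddx58 (RIG-I), Ifih1 (MDA5), Dhx58 (LGP2), Mavs, Trim25 and Zc3hav1 (ZAP). They were chosen by name, with earlier results of these data known. All 6 were found among the 19938 genes measured, each on a single probe set annotated to that gene alone. The cells were immortalized mouse macrophages of a wild-type B6 line and of a line lacking Toll-like receptor 9 (TLR9), an endosomal receptor for DNA. There were 3 arrays of unstimulated wild-type cells, 3 of wild-type cells with β-1,3 glucan beads, 2 of unstimulated TLR9KO cells and 2 of TLR9KO cells with beads. Beads made of this fungal cell wall sugar were given at 20 per cell for 4 h, and the series asked which genes then differ between the lines. Each genotype is a single immortalized line, so the genotype and other differences between the lines cannot be told apart. The sources used here do not give the way the lines were immortalized, the knockout allele or its strain background.

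RIG-I and MDA5 are cytosolic helicases that bind viral double-stranded RNA and carry a pair of caspase recruitment domains. These domains seed filaments of MAVS on the outer mitochondrial membrane, from which the kinases that activate IRF3, IRF7 and NF-kappaB are recruited. LGP2 has the helicase but lacks the recruitment domains, and it modulates the other sensors. TRIM25 is a ubiquitin ligase of RIG-I signalling and a cofactor of ZAP, which binds CpG-rich viral RNA and brings it to decay. Type I interferon induces many of these genes through ISGF3, a transcription factor complex that binds interferon-stimulated response elements.

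Sequence around the starts of the members was taken from RefSeq (GRCm38.p6), which held a window from 250 bases before to 50 bases after the start for 5 of the 6 genes; Dhx58 was not matched. The core of the response element, written as GAAA, any 2 bases and GAAA again, was searched on both strands. It was found in the windows of Ddx58 and Ifih1 and not in those of Mavs, Trim25 and Zc3hav1, against 3.44% of 32851 promoter windows. The Zc3hav1 window lay inside the annotated gene: its 250 bases before the start were chr6:38354604-38354853 (minus strand), while the gene reached 38355352. Sequence at the outer boundary of Zc3hav1 was therefore not searched. A tighter spacing, with any 1 base between the GAAA repeats, was added after the sequences had been seen. It was found in Ddx58 alone of the 5, against 3.17% of the windows. The match letters are in capitals. The first run holds the 250 bases before the Ddx58 start (chr4:40239826-40240075, minus strand), with the tighter motif at bases -60 to -52. The next 2 are windows of 30 bases around the response element core, on the opposite strand at bases 3 to 12 after the Ddx58 start (chr4:40239804-40239833, minus strand) and on the gene's strand at bases 33 to 42 after the Ifih1 start (chr2:62646206-62646235, minus strand). The last holds the 250 bases before the Mavs start (chr2:131233813-131234062, plus strand), shown as a member whose lines overlapped and whose window held neither motif. The window of Trim25, which was higher in the knockout line, held neither motif as well. A match is a description of the letters and not a measured binding site.
Ddx58 upstream: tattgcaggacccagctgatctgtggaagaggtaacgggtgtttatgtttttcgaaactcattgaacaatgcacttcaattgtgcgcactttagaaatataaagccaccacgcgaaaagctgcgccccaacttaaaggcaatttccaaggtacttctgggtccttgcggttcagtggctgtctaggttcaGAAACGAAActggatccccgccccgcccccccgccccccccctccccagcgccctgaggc
Ddx58 start: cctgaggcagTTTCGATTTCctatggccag
Ifih1 start: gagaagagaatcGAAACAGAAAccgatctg
Mavs upstream: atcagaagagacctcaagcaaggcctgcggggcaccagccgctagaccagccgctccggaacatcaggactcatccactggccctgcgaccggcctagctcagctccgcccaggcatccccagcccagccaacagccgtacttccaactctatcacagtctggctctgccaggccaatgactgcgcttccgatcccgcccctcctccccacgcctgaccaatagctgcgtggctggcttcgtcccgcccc

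All values are log2 RMA signals, so a difference of 1 is a doubling. Wild-type bead array 3 stood apart: its mean Pearson r with its group mates across genes was 0.973, against 0.985 to 0.997 for the other 9 arrays. Over all genes it had the highest median (6.32, against 5.98 to 6.19 on the others) and the smallest SD (1.75, against 1.86 to 2.00). How far this narrower spread accounts for the offsets of the members was not tested. Against the mean of wild-type bead arrays 1 and 2, array 3 read lower for Trim25 (-0.71), Zc3hav1 (-0.63), Mavs (-0.45), Ddx58 (-0.30) and Ifih1 (-0.19), and about level for Dhx58 (0.038). Results of the 6 genes that rest on it are therefore given with and without it, as are the counts of the pathway lists. The macrophage markers Cd68, Lyz2, Csf1r, Adgre1 and Itgam lay at percentile 93.1 or higher on every array. Of the other 3 measured, Fcgr1 lay at 83.1 or higher and Cd14 at 74.7 or higher, while Mertk ran from 48.7 to 78.1 and was below the array median on both knockout bead arrays. The 6 granulocyte markers measured were below the array median throughout. No marker of dendritic cells, lymphocytes or fibroblasts exceeded the 75th percentile on every array of a group. The dendritic cell marker Itgax lay between percentiles 56.4 and 64.0. The fibroblast markers Col1a1 (54.8 to 66.8), Col1a2 (58.5 to 72.8) and Col3a1 (55.5 to 66.3) were also above the array median on every array. The other markers of these lists fell below it on some or all arrays. In bulk RNA, a different share of expressing cells and a different amount per cell cannot be told apart.

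Without beads, all 3 RNA sensors and Trim25 were higher in the knockout line, while Mavs and Zc3hav1 did not pass the test. Ddx58 was 9.18-fold, Ifih1 6.87-fold, Dhx58 6.25-fold and Trim25 2.02-fold higher, with 2 knockout and 3 wild-type arrays. These 4 of 6 members passed limma's test at an adjusted p under 0.05 over all genes, and the call of a higher level was made for 3.79% of genes overall. The median log2 difference of the 6 members was 1.83, against 0.017 over all genes. Because the members were chosen with earlier results of these data known, these comparisons describe the list and do not test it.

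**Figure D1:**
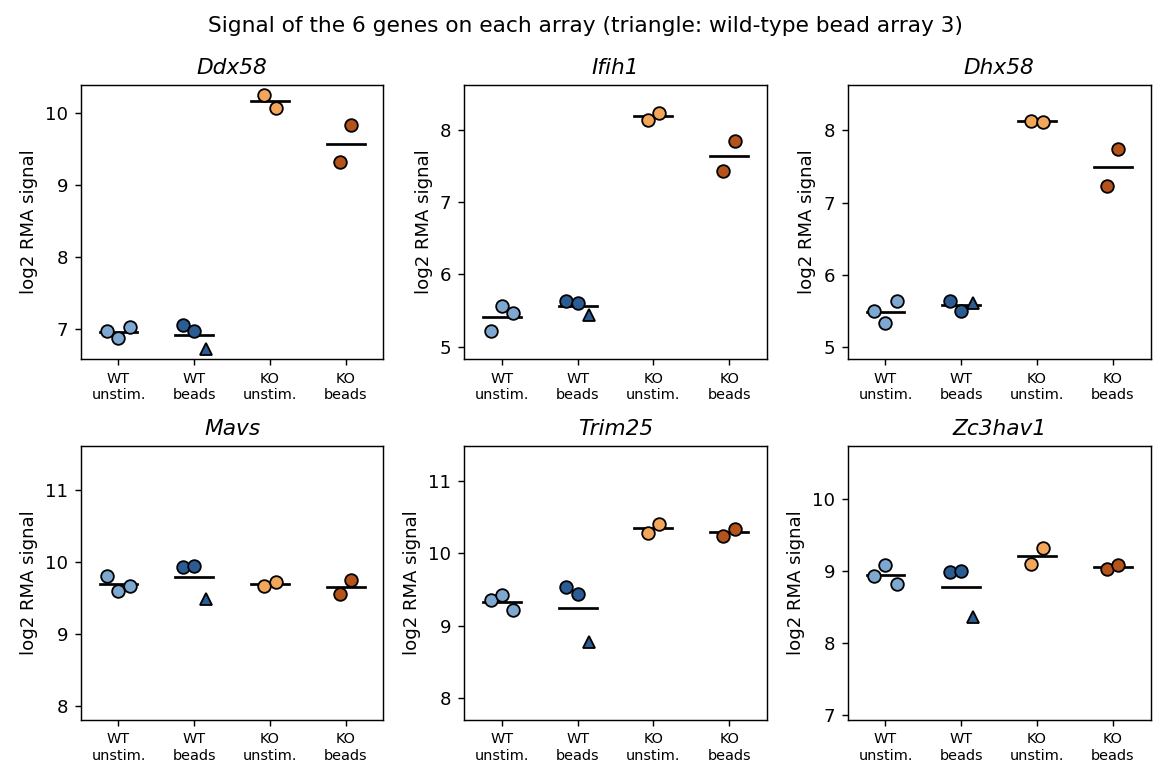
Log2 RMA signal (vertical axes, each spanning the same range) of the 6 genes on each of the 10 arrays, by group; WT is wild type, KO is TLR9 knockout, points are arrays, bars are group means and the triangle is wild-type bead array 3. The knockout arrays of Ddx58, Ifih1, Dhx58 and Trim25 lie above all wild-type arrays, and those of Mavs lie among them.

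Ddx58 encodes RIG-I, the sensor of short double-stranded RNA with a 5′ triphosphate. The 3 unstimulated wild-type arrays gave log2 signals of 6.98, 6.88 and 7.03, and both unstimulated knockout arrays stood higher, at 10.25 and 10.07. The lines did not come near each other, and the difference was 3.20 ± 0.16 (SE, limma adjusted p = 4.65e-06). It was the 17th highest of the 19938 differences.

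Ifih1 encodes MDA5, which binds long double-stranded RNA. It read 5.21, 5.56 and 5.46 in unstimulated wild type and 8.15 and 8.24 in unstimulated knockout. The difference was 2.78 ± 0.15 (limma adjusted p = 6.45e-06), the 37th highest. The wild-type signals lay between percentiles 31.7 and 43.8 of their arrays, with and without beads, and the table has no detection calls, so the size of this difference depends on how well such low signals are read.

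Dhx58 encodes LGP2, the sensor without a signalling domain. It read 5.49, 5.33 and 5.63 in unstimulated wild type and 8.13 and 8.12 in unstimulated knockout. The difference of 2.64 ± 0.15 (limma adjusted p = 8.90e-06) was the 40th highest. Its wild-type signals, too, were below the median of each array, between percentiles 35.4 and 43.7.

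Mavs, the adaptor that both signalling sensors share, was well above the array median in both lines. It read 9.80, 9.61 and 9.67 in unstimulated wild type and 9.67 and 9.72 in unstimulated knockout. The arrays of the lines overlapped, and the difference was 0.0044 ± 0.15 (limma adjusted p = 0.998). The 95% confidence interval ran from -0.33 to 0.34, so a difference of up to about that size in either direction is not shown to be absent.

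Trim25 read 9.36, 9.42 and 9.21 in unstimulated wild type and 10.28 and 10.41 in unstimulated knockout. The groups did not overlap, and the difference was 1.02 ± 0.20 (limma adjusted p = 0.0127). It passed under 14 of 18 alternative settings, among them the fit without wild-type bead array 3. This call was lost without unstimulated knockout array 1 (1.08, limma adjusted p = 0.0793) or 2 (0.95, 0.122), without unstimulated wild-type array 3 (0.96, 0.0556) and after centring each array on its median (0.98, 0.133).

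Zc3hav1 read 8.93, 9.08 and 8.82 in unstimulated wild type and 9.10 and 9.31 in unstimulated knockout. The knockout arrays lay just above the wild-type arrays, as they did for 17.7% of all genes. The difference of 0.26 ± 0.19 did not pass (limma adjusted p = 0.668, 95% confidence interval -0.16 to 0.69). With array weights, which reweight the arrays by their fit, it passed at 0.35 (limma adjusted p = 0.0164). That setting called 4451 of the 19938 genes in this comparison, and its estimation stopped before it converged.

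**Figure D2:**
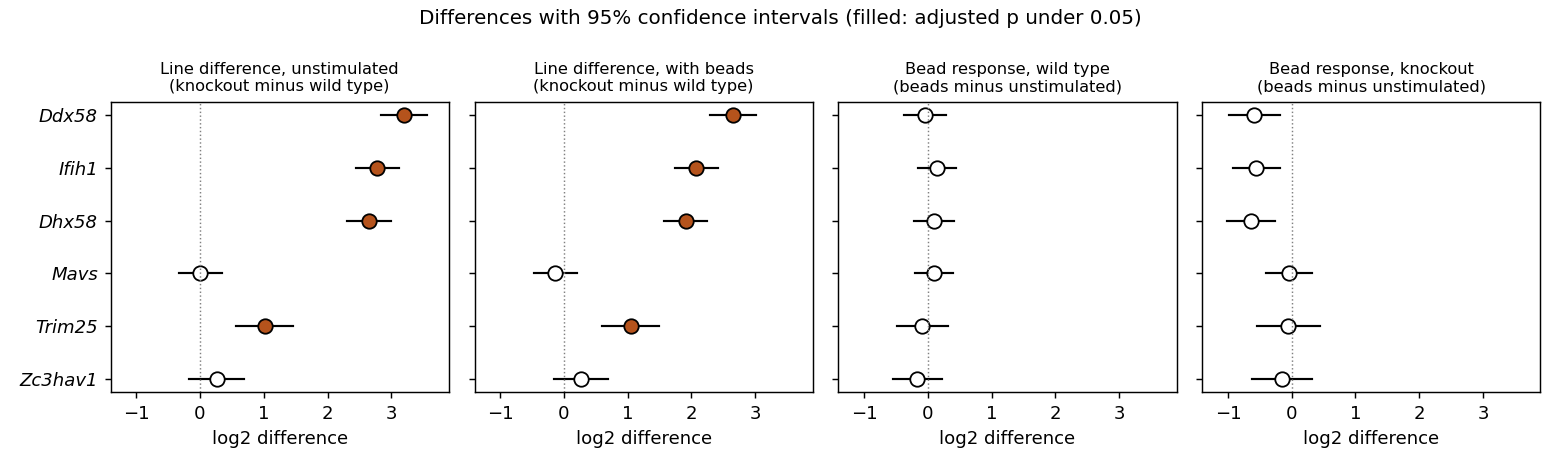
Log2 differences (horizontal axes) of the 6 genes for the line differences without and with beads and for the bead response of each line; points are estimates, lines their 95% confidence intervals, and filled points have an adjusted p under 0.05. Ddx58, Ifih1, Dhx58 and Trim25 are filled in both line differences, and no point is filled in the bead responses.

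With beads the same 4 members were higher in the knockout line, where 3.82% of all genes were called higher. The arrays of this comparison are not those of the unstimulated one, although 1 fit supplies the spread of a gene to both. The median of the 6 members was 1.48, against -0.011 over all genes.

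Ddx58 stood at 7.05, 6.98 and 6.72 with beads in wild type, against 9.32 and 9.83 with beads in knockout. The difference of 2.66 ± 0.16 (limma adjusted p = 1.45e-05) is a fold of 6.30, and it was 2.56 without wild-type bead array 3. Ifih1 read 5.64, 5.61 and 5.43 against 7.43 and 7.85. It differed by 2.08 ± 0.15 (4.22-fold, limma adjusted p = 3.62e-05), or 2.02 without that array.

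Wild-type cells read 5.63, 5.50 and 5.61 for Dhx58, and knockout cells 7.23 and 7.75. It differed by 1.91 ± 0.15 (3.75-fold, limma adjusted p = 7.21e-05), or 1.92 without wild-type bead array 3. For all 3 sensors, knockout bead array 1 read lower than knockout bead array 2, and both read far above wild type.

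Trim25 gave 9.53, 9.43 and 8.78 on the wild-type arrays, below the knockout values of 10.25 and 10.34. The difference was 1.05 ± 0.20 (limma adjusted p = 0.0116), and without wild-type bead array 3 it was 0.81 (limma adjusted p = 2.62e-04). The call was lost without knockout bead array 1 (1.09, limma adjusted p = 0.0751) or 2 (1.00, 0.116), after median centring (1.03, 0.116) and in a fit of the bead arrays alone (1.05, 0.129).

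Mavs gave 9.93, 9.94 and, on array 3, 9.49 in wild type, around the knockout values of 9.55 and 9.75. The difference of -0.13 ± 0.15 did not pass (limma adjusted p = 0.964). Its size depended on the arrays: it was -0.28 without wild-type bead array 3 (limma adjusted p = 0.0716), but -0.060, -0.056 and -0.033 without wild-type bead array 1, wild-type bead array 2 or knockout bead array 1, and -0.23 without knockout bead array 2. With array weights it was -0.28 and passed (limma adjusted p = 0.0278); its adjusted p was 0.0716 to 1 under the other alternatives. The fit with array weights called 6083 of the 19938 genes in this comparison. Zc3hav1 gave 8.99, 8.99 and 8.36 in wild type, all below the knockout values of 9.02 and 9.08, as for 11.3% of all genes. Its difference was 0.27 ± 0.19 (limma adjusted p = 0.679), and 0.063 without array 3, so most of it rested on that array.

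The beads themselves moved no member past the threshold in either line. No gene at all passed in the limma test of either bead response or of their difference (0% called). Of all genes, 167 (0.838%) had an unadjusted p under 0.05 for the wild-type response, 359 (1.8%) for the knockout response and 172 (0.863%) for the difference between the responses. Of the 6 members, 0, 3 and 3 did. The shares over all genes are smaller than the share of 0.05 that p-values without any difference would give. The tests were thus cautious here, and the lack of calls does not show that the beads changed nothing.

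In wild type the bead differences of the members ran from -0.17 for Zc3hav1 to 0.15 for Ifih1, and for each member the bead and unstimulated arrays overlapped. Without wild-type bead array 3 they ran from 0.046 for Zc3hav1 to 0.25 for Mavs, and the values of Ddx58, Trim25 and Zc3hav1 turned from below to above 0. With array weights 3 members passed in wild type, Ifih1 (0.18), Mavs (0.25) and Trim25 (0.19), along with 9174 of all genes. That setting gave wild-type bead array 3 a weight of 0.070 and array 2 a weight of 12.1, and its estimation stopped before it converged.

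In the knockout line the 3 sensors read lower with beads than without. Dhx58 differed by -0.64 ± 0.17 (unadjusted p = 0.00382), Ddx58 by -0.59 ± 0.18 (0.00853) and Ifih1 by -0.55 ± 0.16 (0.00765), and both bead arrays lay below both unstimulated arrays for each of them, as for 11.2% of all genes. They were the 15th, 27th and 38th lowest of the 19938 differences, and none passed (limma adjusted p = 1 for each). The size depended on the bead array: without knockout bead array 1 the differences were between -0.38 and -0.33, and without array 2 between -0.90 and -0.76. Mavs (-0.042 ± 0.16), Trim25 (-0.055 ± 0.22) and Zc3hav1 (-0.15 ± 0.21) had values nearer to 0.

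The difference between the bead responses, knockout minus wild type, was -0.74 ± 0.22 for Dhx58, -0.70 ± 0.21 for Ifih1 and -0.54 ± 0.23 for Ddx58. None passed (limma adjusted p = 1 for each), although they lay among the 42 lowest values of all genes. Without wild-type bead array 3 they were -0.72, -0.76 and -0.64. Without knockout bead array 1 they were -0.48, -0.49 and -0.29, and without knockout bead array 2 -0.996, -0.91 and -0.80, and none passed in these fits. For Trim25 (0.031 ± 0.28) and Zc3hav1 (0.013 ± 0.27) the sign changed without wild-type bead array 3 (-0.20 for each).

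Ordered by group mean, the levels of Ddx58 fell from unstimulated knockout (10.16 ± 0.13, SD, n = 2) to knockout with beads (9.58 ± 0.36, n = 2), unstimulated wild type (6.96 ± 0.073, n = 3) and wild type with beads (6.92 ± 0.17, n = 3). The arrays left a wide gap at the step from knockout with beads to unstimulated wild type, a pair that was not tested. The step between the knockout groups did not pass, and the wild-type groups overlapped. Ifih1 and Dhx58 had the same order for the knockout groups, at 8.19 and 7.64 for Ifih1 and at 8.13 and 7.49 for Dhx58. Their wild-type means stood the other way round, at 5.56 with and 5.41 without beads for Ifih1 and at 5.58 and 5.48 for Dhx58, with overlapping arrays. Trim25 ran from 10.35 and 10.29 in knockout to 9.33 and 9.25 in wild type, unstimulated first, and neighbours of one line overlapped. For Mavs all 4 means lay between 9.65 and 9.79 and no neighbours were apart. For Zc3hav1 the means ran from 9.20 and 9.05 in knockout to 8.94 and 8.78 in wild type, unstimulated first, where the neighbours within wild type and those between the lines overlapped.

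Over the 10 arrays the 3 sensors followed one another closely, with Pearson r of 0.992 to 0.994 between pairs, a description that rests mainly on the step between the lines. Within the 6 wild-type arrays, where they hardly varied, it was 0.013 to 0.172. Trim25 and Zc3hav1 correlated at 0.970 over the wild-type arrays, where both were low on wild-type bead array 3. All points of a pair share their arrays and so their normalisation.

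The genes most like Ddx58 over the 10 arrays were Usp18, the protease that removes ISG15 from proteins (r = 0.998), Edil3 (0.997) and Parp8 (0.997). For Ifih1 they were the ADP-ribosyltransferase Parp14 (0.995), Xaf1 (0.995) and Parp8 (0.994), and for Dhx58 the prostaglandin dehydrogenase Hpgd (0.997), Ifi209 (0.996) and Xaf1 (0.994). In the unstimulated lines Usp18 differed by 3.15, Parp14 by 2.85 and Hpgd by 3.93. Those most like Trim25 were the lysosomal sterol carrier Npc2 (0.995), Ankrd13a (0.995) and the protein kinase C isoform Prkch (0.994).

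Mavs and Zc3hav1 had other neighbours. The genes most like Mavs were the DNA glycosylase Ogg1 (0.961), the mitochondrial thymidine kinase Tk2 (0.952) and the metal ion transporter Slc11a2 (0.946), whose line differences in unstimulated cells lay between -0.092 and 0.13. Those most like Zc3hav1 were St7 (0.978), the poly(A) polymerase Tent2 (0.972) and the phospholipid flippase Atp8a1 (0.960).

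The other genes of the pathway, in lists drawn up by function, mostly did not differ between the lines beyond the threshold. Over all genes, 3.79% were called higher and 4.46% lower without beads, and 3.82% and 3.4% with beads. Among 21 measured regulators of the sensors, 1 was higher and 1 lower in the unstimulated knockout line (median -0.0047), a share near that of all genes. Ddx60, a helicase linked to RIG-I signalling, was higher by 1.82 ± 0.20, from a wild-type signal below the 25th percentile of each array. Ppp1cc, a phosphatase subunit that dephosphorylates RIG-I and MDA5, differed by -0.80 ± 0.17. With beads 3 were higher and 1 lower, Ddx60 (1.23 ± 0.20), the MDA5-binding 14-3-3 protein Ywhah (0.71 ± 0.17) and the RIG-I ubiquitin ligase Mex3c (0.68 ± 0.10) against Ppp1cc (-0.88 ± 0.17). Without wild-type bead array 3 these with-beads differences were 1.32, 0.53, 0.70 and -1.04, and all 4 still passed. None of the 19 genes that act on MAVS itself passed in either comparison of the lines.

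**Figure D3:**
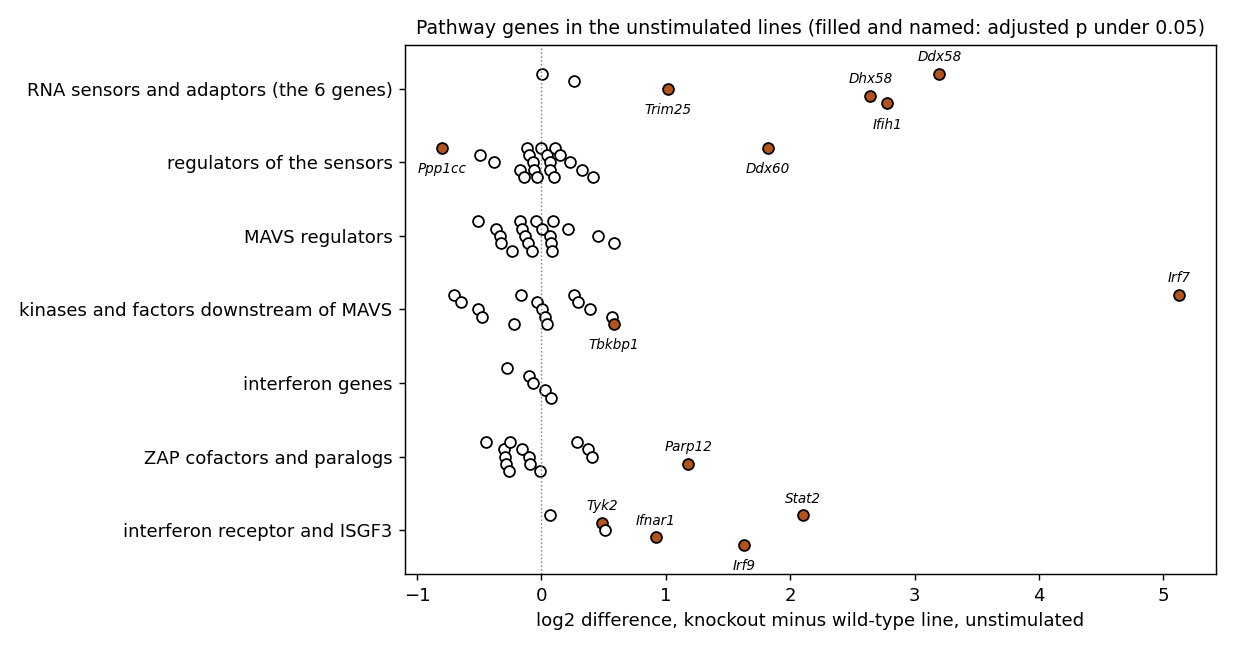
Log2 difference between the unstimulated knockout and wild-type lines (horizontal axis) for the 6 genes and for the genes of each pathway list; each point is a gene, spread vertically for legibility, and filled, named points have an adjusted p under 0.05. With all 10 arrays in the fit, Irf7, at 5.12, is the point farthest to the right, and the genes acting on MAVS and the interferon genes hold no filled point.

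Of 16 measured kinases, adaptors and transcription factors downstream of MAVS, 2 were higher without beads and 3 with beads, and none was lower. Irf7, the factor that amplifies interferon production, differed by 5.12 ± 0.13 and 4.91 ± 0.13 (4.83 with beads without wild-type bead array 3). Tbkbp1, an adaptor of the kinase TBK1, differed by 0.58 ± 0.12 and 0.59 ± 0.12, and Ikbkg, a subunit of the IkappaB kinase complex, passed with beads (0.38 ± 0.09). Irf3, which MAVS signalling activates without new synthesis, differed by -0.16 ± 0.09 and -0.14 ± 0.09 and did not pass (limma adjusted p = 0.468 and 0.659).

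The interferon genes did not differ past the threshold: none of 5 passed in any comparison. Ifnb1, which encodes interferon beta, read 5.04, 4.84 and 4.89 in unstimulated wild type and 4.82 and 4.89 in unstimulated knockout. It lay between percentiles 20.6 and 28.3 on all 10 arrays, a signal at which a small change may not be seen. The interferon receptor and ISGF3 list had 4 of 6 measured genes higher in both comparisons. Without beads Stat2 differed by 2.11 ± 0.12, Irf9 by 1.63 ± 0.12, the receptor chain Ifnar1 by 0.92 ± 0.15 and the kinase Tyk2 by 0.49 ± 0.10. The ISG15 gene was not analysed here.

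Among 14 cofactors and paralogs of ZAP, Parp12, a relative with the same kind of zinc finger, was the 1 gene that was higher, by 1.18 ± 0.19 without and 0.94 ± 0.19 with beads. Their median was -0.13 without and -0.018 with beads, the latter -0.15 without wild-type bead array 3. Without wild-type bead array 3 the Parp12 difference with beads was 0.72 and still passed. No gene of these lists passed in either bead response. In the knockout line the lowest bead differences among them were those of Ddx60 (-0.60) and Stat2 (-0.38), neither of which passed.

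The counts of these lists rested in part on wild-type bead array 3, which adds to the spread of many genes, though not of all. Without it, 7.08% of all genes were called higher and 11.3% lower in the unstimulated comparison, and 7.19% and 13.7% with beads. Of the 19 genes that act on MAVS, 2 were then higher and 2 lower without beads, and 2 higher and 4 lower with beads. Of the 21 regulators of the sensors 3 were higher and 3 lower without beads, and 3 and 4 with beads. Of the 16 genes downstream of MAVS 5 were higher and 4 lower without beads, and 3 and 4 with beads. Of the 14 cofactors and paralogs of ZAP 3 were higher and 2 lower without beads, and 1 and 3 with beads. Of the 6 genes of the interferon receptor and ISGF3 list 5 were higher without and 4 with beads, and of the 5 interferon genes none passed. This setting was applied to the lists after the data had been seen.

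Macrophage markers also differed between the lines, 4 of 8 being higher and 1 lower in both comparisons. Of all genes, 3.79% were called higher and 4.46% lower without beads, and 3.82% and 3.4% with beads. Without wild-type bead array 3, 5 markers were higher and 1 lower without beads, and 4 and 1 with beads, against the shares over all genes given above for that setting. Without beads Cd14 differed by 2.46 ± 0.18, Fcgr1 by 1.14 ± 0.15, Adgre1 by 0.89 ± 0.16 and Mertk by -1.50 ± 0.21. The mean over the 8 markers ran from 10.12 to 10.21 in the unstimulated wild-type arrays and from 10.66 to 10.74 in the unstimulated knockout arrays. No marker of dendritic cells, granulocytes, lymphocytes or fibroblasts passed, with or without wild-type bead array 3. The part of these marker differences in the differences of the sensors was not tested.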

How the data were processed

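The deposited table holds log2 signals per probe set on 10 Affymetrix arrays, which the authors computed with RMA according to the submitters' processing notes. That method corrects the background, equalises the distributions of arrays normalised together and summarises probes. The sources used here give neither its version or software nor whether all arrays were run together. The log2 scale follows from the values. Over the genes tested the arrays did not share one distribution: their medians ran from 5.98 to 6.32 and their SDs from 1.75 to 2.00. How the arrays were centred and scaled stays unknown.

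Of 28853 probe sets, 21789 carried 1 gene symbol in the platform annotation, 1621 several and 5443 none. Symbols were updated by Entrez ID for 21698. Each gene was read by its single-gene probe set with the highest mean, giving 19938 genes, with no filter on low signal. A linear model with a mean per group was fitted with limma 3.58.1 in R 4.3.3 (lmFit, eBayes), with 6 residual and 3.23 prior degrees of freedom, after a test on simulated data. Tests were two-sided, with Benjamini-Hochberg adjustment over all genes and a threshold of 0.05. The ± values of differences are standard errors. Separate cultures are not named in the labels, so the p-values reflect the spread among these arrays, whose number limits the precision. Replicates were numbered in accession order.

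The members and lists were chosen with earlier results of these data known. The text names the 6 members, up to 4 genes per list with the largest difference among those that passed between the lines, Irf7, Irf3 and Ifnb1, and per member the 3 genes with the highest Pearson r over the arrays, without predicted genes and small RNAs. The 18 alternatives were other moderation, centring, normalisation, filtering, weighting and probe set choices, a fit of the compared groups alone, and leaving out each array.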

Additional observations from a re-analysis of the deposited data

How the results depend on the processing

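The calls of Ddx58, Ifih1 and Dhx58 in both comparisons of the lines held under all 18 alternatives, with log2 differences of 3.11 to 3.29, 2.68 to 2.86 and 2.54 to 2.72 without beads and of 2.40 to 2.91, 1.87 to 2.28 and 1.65 to 2.17 with beads. The number of members that passed stayed between 3 and 5 in both. In the wild-type bead response it was 3 with array weights and 0 otherwise; in the knockout response and the difference of responses it was 0 throughout. Where an array was left out of a knockout group, the lone array was assumed to vary like the other groups. All genes called without beads numbered 1645 (681 to 4451 over the alternatives) and with beads 1439 (480 to 6083), the highest with array weights; the lowest were those without unstimulated knockout array 1 and in the fit of the bead arrays alone. Without wild-type bead array 3 they were 3668 and 4171. In the bead responses 0 genes were called, against 9174 in wild type with array weights and, in knockout, 17 without wild-type bead array 3, 16 with array weights and 5 after quantile normalisation; for the difference of responses 9 were called with array weights and 1 without wild-type bead array 3.

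Signs turned only for values that had not passed in the reported fit, the largest in size being the wild-type bead response of Zc3hav1 (-0.17). Mavs without beads was -0.036 after median centring. With array weights the wild-type bead response was -0.074 for Dhx58, 0.19 for Trim25 (passed) and 0.13 for Zc3hav1. The difference of responses was -0.017 for Trim25 and -0.035 for Zc3hav1 after 75th percentile centring, -0.032 and -0.043 after quantile normalisation, and -0.24 and -0.29 with array weights. With 1 array left out, Mavs without beads ran from -0.039 to 0.060, the wild-type bead response from -0.11 to 0.054 for Ddx58, -0.23 to 0.15 for Trim25 and -0.27 to 0.046 for Zc3hav1, the knockout response from -0.14 to 0.058 for Mavs and -0.12 to 0.0096 for Trim25, and the difference of responses from -0.20 to 0.17 for Trim25 and -0.20 to 0.12 for Zc3hav1. The cause of these changes was not tested. No paired analysis was possible because no replicate number in the labels is shared between groups. Low wild-type signals of Ifih1 and Dhx58, without detection calls, limit how exactly their folds are known.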
